A study of Mus musculus with 7 samples.

Results

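The genes of MHC class I antigen presentation were followed in LLC1, a mouse Lewis lung carcinoma line, in which Ddx54, a nucleolar DEAD-box RNA helicase, had been lowered. The members were 10 genes chosen by symbol, and all 10 were found among the 24419 genes of the count table. They are B2m, H2-K1, H2-D1, H2-T23, Tap1, Tap2, Tapbp, Tapbpl, Erap1 and Nlrc5. Polyadenylated RNA was sequenced from 7 libraries of cells cultured in DMEM with fetal bovine serum. The wild-type group (genotype WT DDX54) had 4 libraries and the knockdown group (genotype DDX54 KD, by an shRNA) had 3. A control construct, the shRNA sequence, a clone and an added cytokine are not named in the labels. Whether replicates were grown as separate cultures is not said either, so the p-values cover only the spread among these libraries, which may be technical.

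Class I molecules display short peptides from inside the cell to CD8 T cells. A heavy chain folds with the light chain, beta-2 microglobulin, in the endoplasmic reticulum. The proteasome makes the peptides, the TAP transporter carries them into that compartment, and the peptide loading complex fits them into the groove of the heavy chain. Many tumour lines keep this pathway at a low level until interferon raises it, and its amount affects how visible a tumour cell is to T cells.

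Ddx54 was at 80.4, 82.5, 78.6 and 83.2 CPM (reads of a gene per 1e6 reads of the library, after TMM scaling) in wild-type and at 45.9, 39.2 and 45.8 CPM in knockdown. No library went against its label. Library totals ranged from 14987324 to 18673395 counts. Library makeup differed between the groups without overlap. The ribosomal RNA gene Rn45s held 10.7 to 12.5% of counts in wild-type and 7.96 to 9.07% in knockdown. Genes with any count numbered 12698 to 12875 in wild-type and 13105 to 13347 in knockdown. TMM factors were 0.963 to 0.989 and 1.025 to 1.041. With Rn45s removed before the fit, 2 members were higher and 4 lower at an adjusted p under 0.05 (edgeR), the same numbers as with it. The part of these differences in the members' changes was otherwise not tested. Of 11594 genes tested, 29.4% passed an adjusted p of 0.05, with 14.1% higher and 15.3% lower in knockdown. For 35.1% of tested genes the wild-type and knockdown ranges were apart, 17.5% higher and 17.6% lower. Of 15 leukocyte markers, 0 had enough counts to be tested, and their summed level was 0.272 to 1.48 CPM in wild-type and 0.716 to 1.79 CPM in knockdown. Ptprc, the pan-leukocyte marker, had 2 counts in wild-type 3 and 0 elsewhere, and Cd3e, a T cell marker, was at 0 throughout. The leukocyte genes Lyz2, Tyrobp, Itgam and Cd52 had 0 counts in wild-type and up to 6 per knockdown library. Fcer1g, a receptor signalling chain, had 1, 0, 0 and 1 counts in wild-type and 7, 8 and 3 in knockdown. The endothelial list also had 0 of 6 tested, with sums of 0.178 to 0.784 and 0.0543 to 0.776 CPM. Of 8 fibroblast markers 4 could be tested and 0 passed (edgeR, with 1 at an unadjusted p under 0.05), with sums of 23.5 to 30.2 CPM in wild-type and 28.9 to 32.5 CPM in knockdown. Of 9 epithelial markers 3 could be tested, and the keratins Krt18 (log2 fold change -0.72, adjusted p = 4.62e-10) and Krt19 (-2.03, adjusted p = 0.000811) fell, while Krt8 did not pass (0.22). Epcam, an epithelial surface marker, had 0 to 2 counts per library. The epithelial list summed to 238.7 to 248.9 CPM in wild-type and 148.8 to 168.0 CPM in knockdown, and their part in the members' changes was not tested. Fewer cells that express a gene and less RNA per cell cannot be told apart in bulk RNA.

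The promoters of the 5 members that passed the test and have an entry in the RefSeq promoter table (GRCm38.p6) are shown because these genes changed in knockdown. Each window runs from 250 bases before to 50 after the annotated start. Capitals mark matches, on either strand, to 6 searched motifs. The interferon-stimulated response element core was GAAA, any 2 bases, then GAAA. The kappa B site was GGGA, any base, TT, any base, then CC. TGACG is a core of the cyclic AMP response element, as in the X2 box, and CCAAT is the Y box. The class I forms of the kappa B and interferon elements were added after the sequences had been seen, and are the capitals that start at positions -111 and -91 of H2-K1 (counted from the start site). No matches overlapped in these windows.
B2m, chr2:122147437-122147736, plus strand: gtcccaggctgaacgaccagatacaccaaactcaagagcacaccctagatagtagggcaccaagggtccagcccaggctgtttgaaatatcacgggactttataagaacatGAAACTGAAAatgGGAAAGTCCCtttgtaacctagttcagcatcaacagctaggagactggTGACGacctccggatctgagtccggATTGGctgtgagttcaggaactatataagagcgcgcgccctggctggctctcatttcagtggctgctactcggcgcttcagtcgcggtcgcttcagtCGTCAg
H2-K1, chr17:34000298-34000597, minus strand: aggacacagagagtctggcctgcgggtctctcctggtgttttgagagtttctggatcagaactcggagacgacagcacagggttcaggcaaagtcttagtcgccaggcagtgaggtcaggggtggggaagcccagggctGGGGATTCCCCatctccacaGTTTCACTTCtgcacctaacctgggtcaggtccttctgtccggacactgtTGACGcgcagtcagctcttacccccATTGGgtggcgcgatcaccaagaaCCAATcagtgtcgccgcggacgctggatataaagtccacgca
H2-D1, chr17:35262844-35263143, plus strand: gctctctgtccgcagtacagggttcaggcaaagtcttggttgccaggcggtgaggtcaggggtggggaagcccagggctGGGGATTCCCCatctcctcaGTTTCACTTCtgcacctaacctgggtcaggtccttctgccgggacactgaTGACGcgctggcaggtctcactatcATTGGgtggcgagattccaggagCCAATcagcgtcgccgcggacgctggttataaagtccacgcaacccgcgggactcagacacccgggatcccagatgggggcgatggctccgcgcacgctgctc
Tapbp, chr17:33919228-33919527, plus strand: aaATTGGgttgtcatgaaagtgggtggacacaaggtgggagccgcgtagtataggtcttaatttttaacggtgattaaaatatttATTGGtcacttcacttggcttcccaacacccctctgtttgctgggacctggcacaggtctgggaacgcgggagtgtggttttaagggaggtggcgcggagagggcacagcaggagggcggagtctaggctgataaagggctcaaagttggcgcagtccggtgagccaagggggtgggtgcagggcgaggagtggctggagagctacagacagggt
Erap1, chr13:74639603-74639902, plus strand: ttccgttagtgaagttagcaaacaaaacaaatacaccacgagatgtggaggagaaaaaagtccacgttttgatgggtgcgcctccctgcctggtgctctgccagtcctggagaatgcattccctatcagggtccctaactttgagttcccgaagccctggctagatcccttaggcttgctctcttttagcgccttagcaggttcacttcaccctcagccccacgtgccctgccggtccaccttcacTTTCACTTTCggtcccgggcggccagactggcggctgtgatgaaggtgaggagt

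The H2-K1 and H2-D1 windows were alike, with 206 of 227 aligned bases identical (90.7%). Both held the class I forms of the kappa B and interferon elements, TGACG, and CCAAT on both strands. Among 32851 windows of the table, that class I kappa B form occurred in 0.0304%, that interferon element form in 0.14%, TGACG in 20.8% and CCAAT in 37.4%. The class I forms were chosen after these windows had been seen. Their presence here was thus set in advance, and their rarity lends no weight. The B2m window held the interferon element core, present in 3.44% of windows, and the general kappa B site, present in 1.2%, as well as TGACG and CCAAT. Erap1 held only the interferon element core, from position -4 across its start, and Tapbp held only CCAAT. The H2-D1, Tapbp and Erap1 windows belong to RefSeq starts inside the longer GENCODE gene models, and lie wholly within those models. A match is a description of letters. The table also holds windows for H2-T23 and Tap1 and a second, overlapping window for H2-K1. Tap2, Tapbpl and Nlrc5 were not matched.

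The light chain and both classical heavy chains fell in knockdown, by unequal amounts. B2m is a protein-coding gene (ENSMUSG00000060802.8; GRCm38/mm10, chromosome 2, 122147686 to 122153083, plus strand). B2m was at 1030.4, 1159, 967 and 1070.3 CPM in wild-type and at 819.6, 742 and 732 CPM in knockdown. Every knockdown library was below every wild-type library. The means were 1057 ± 80.5 CPM (SD, n = 4) and 764 ± 48.0 CPM (SD, n = 3), so knockdown was at 72.4% of wild-type. The log2 fold change was -0.47 (SE 0.064, 95% interval -0.60 to -0.34, adjusted p = 6.55e-07, edgeR quasi-likelihood). None of the windows of 50 bases of the B2m transcript occurred in transcripts of another gene.

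H2-K1 (chromosome 17, 33996017 to 34000347, minus strand, ENSMUSG00000061232.16) encodes the classical K heavy chain. H2-K1 was at 28.8, 18.9, 22.5 and 30.6 CPM in wild-type and at 17.3, 16.6 and 13.3 CPM in knockdown. The groups did not overlap, but wild-type 2, the lowest of its group, was only a little above knockdown 1. H2-K1 fell by 0.68 on the log2 scale (SE 0.17, 95% interval -1.03 to -0.33, adjusted p = 0.00232), from 25.2 ± 5.44 to 15.7 ± 2.16 CPM. For H2-K1 a two-sided exact permutation test gave p = 0.0571, where 0.0286 is the smallest p this design allows. The wild-type spread of H2-K1 was wide, with a coefficient of variation of 21.6% against 4.9% for counting alone.

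H2-D1 (chromosome 17, 35262730 to 35267499, plus strand, ENSMUSG00000073411.11) encodes the classical D heavy chain. H2-D1 was at 304, 295, 301 and 324 CPM in wild-type and at 269.7, 263 and 266 CPM in knockdown. Libraries within each group lay close together, and the groups did not overlap in CPM. H2-D1 fell by 0.20 on the log2 scale (SE 0.063, 95% interval -0.33 to -0.07, adjusted p = 0.0145), which left 87.0% of the wild-type mean. The call was lost without knockdown replicate 2 (adjusted p = 0.0653) or 3 (adjusted p = 0.0563, edgeR).

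The coding sequences of H2-K1 and H2-D1 were identical at 985 of 1077 aligned bases (91.5%, GENCODE M21). Of the windows of 50 bases of the H2-K1 transcript, 8.79% also occurred in transcripts of other genes, H2-D1 first. For H2-D1 this share was 14.3%. With windows of 100 bases the shares were 0% and 4.64%. How reads with several matching genes were counted, and how long they were, is not stated in the sources at hand, so the counts of both genes are uncertain to that extent.

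H2-T23 encodes the heavy chain of Qa-1, a nonclassical molecule that presents leader peptides of other class I chains to NK cell receptors. H2-T23 had 2, 1, 0 and 3 counts in the wild-type libraries and 3, 2 and 0 in the knockdown libraries. No library was above 3 counts, the limit that a count of 0 allows, so any difference was not detectable at this depth and H2-T23 was not tested in the fit. An exact two-sided permutation test on its CPM gave p = 0.857. Of its windows of 50 bases 29.8% were shared with other genes.

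**Figure D1:**
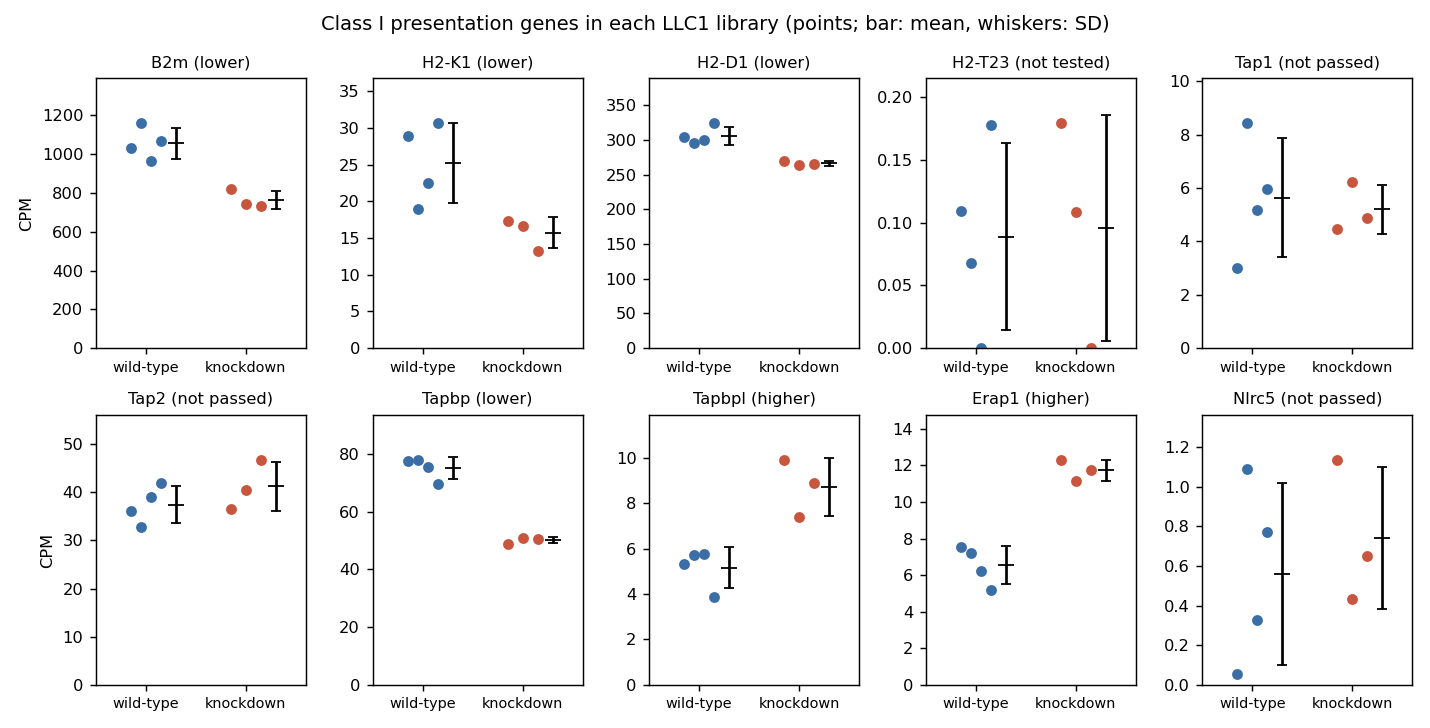
CPM of each member (vertical axes from 0, a scale per gene) in the 4 wild-type and 3 knockdown libraries, each point 1 library, with the mean and SD beside them. B2m, H2-K1, H2-D1 and Tapbp lie lower in every knockdown library, Tapbpl and Erap1 lie higher, and Tap1, Tap2, Nlrc5 and H2-T23 overlap.

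The TAP transporter did not pass the test in either subunit. Tap1 (chromosome 17, 34187553 to 34197225, plus strand, ENSMUSG00000037321.17) and Tap2 (34203527 to 34216321, plus strand, ENSMUSG00000024339.12) together form an ATP-driven peptide pump. Tap1 was at 2.998, 8.42, 5.16 and 5.98 CPM in wild-type and at 4.47, 6.24 and 4.88 CPM in knockdown. All 3 knockdown values lay inside the wild-type range, whose extremes were wild-type 1 and wild-type 2. The log2 fold change of Tap1 was -0.11, with a 95% interval from -0.75 to 0.53 (adjusted p = 0.836). Its sign depended on wild-type replicate 2, without which the value was 0.14.

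Tap2 was at 36.0, 32.9, 39.0 and 41.9 CPM in wild-type and at 36.6, 40.5 and 46.7 CPM in knockdown. Knockdown 3 was the highest library, and the other knockdown libraries lay within the wild-type range. The log2 fold change was 0.14, with a 95% interval from -0.11 to 0.39 (adjusted p = 0.435). A fall of Tap2 of the size estimated for B2m lies outside that interval, while for Tap1 it lies inside. Exons of Tap2 overlap those of Gm15821 and Gm20496 on the opposite strand, which were not analysed here, and 12.6% of windows of 50 bases of its transcript occurred elsewhere.

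Tap1 overlaps Psmb9 on the opposite strand, with shared exon bases, and the strand setting of the counting is not given. Psmb9, an interferon-induced catalytic subunit of the immunoproteasome, had 9, 29, 12 and 38 counts in wild-type and 36, 41 and 7 in knockdown, and did not pass (log2 fold change 0.24, adjusted p = 0.838). Of the windows of 50 bases of the Tap1 transcript 6.47% occurred elsewhere, mainly in Psmb9. Psmb8, its neighbour between Tap1 and Tap2, was at 0.218 to 1.63 CPM in wild-type and at 2.60 to 2.82 CPM in knockdown. The groups did not overlap, but the adjusted p was 0.05003, just over the threshold (log2 fold change 1.61, SE 0.62). Psmb8 passed under 6 of the 15 other settings that could test it, with adjusted p from 0.0192 to 0.147 over all 15.

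Both tapasin family genes changed, in opposite directions. Tapbp (chromosome 17, 33915899 to 33929292, plus strand, ENSMUSG00000024308.15) encodes tapasin, which bridges TAP and the heavy chain in the loading complex. Tapbp was at 77.5, 77.9, 75.6 and 69.6 CPM in wild-type and at 48.9, 51.0 and 50.4 CPM in knockdown. The groups were widely separated and each was tight. Tapbp fell by 0.59 on the log2 scale (SE 0.094, 95% interval -0.78 to -0.39, adjusted p = 9.95e-06), to 66.6% of wild-type.

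Some Tapbp exons overlap those of Zbtb22, a neighbour on the same strand, and of Gm19412, an antisense gene not analysed here. Zbtb22, at 49.8 ± 6.80 CPM in wild-type cells and 47.0 ± 7.58 CPM after knockdown, did not pass (log2 fold change -0.08, adjusted p = 0.673). Of the windows of 50 bases of the Tapbp transcript 21.0% occurred in transcripts of other genes, Gm19412 first.

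Tapbpl (chromosome 6, 125223933 to 125231860, minus strand, ENSMUSG00000038213.7) encodes TAPBPR, a peptide editor that works outside the loading complex. Tapbpl was at 5.34, 5.71, 5.75 and 3.85 CPM in wild-type and at 9.90, 7.38 and 8.91 CPM in knockdown. Every knockdown library was above every wild-type library, and wild-type 4 was the lowest. Tapbpl rose by 0.76 on the log2 scale (SE 0.26, 95% interval 0.23 to 1.28, adjusted p = 0.0244). The call was lost without wild-type replicate 4 (adjusted p = 0.0689), without knockdown replicate 1 (adjusted p = 0.121) or without knockdown replicate 3 (adjusted p = 0.0796, edgeR), while the log2 fold change stayed between 0.64 and 0.87 when any library was left out. Tapbpl rested on 65 to 166 reads per library.

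Erap1 (chromosome 13, 74639568 to 74693201, plus strand, ENSMUSG00000021583.7) encodes the aminopeptidase that trims peptides in the endoplasmic reticulum to the length that class I grooves accept. Erap1 was at 7.52, 7.20, 6.21 and 5.21 CPM in wild-type and at 12.3, 11.1 and 11.8 CPM in knockdown. The lowest knockdown library was well above the highest wild-type library. Erap1 rose by 0.84 on the log2 scale (SE 0.22, 95% interval 0.39 to 1.30, adjusted p = 0.00393), to 179% of wild-type. The rise rested on 88 to 138 reads per wild-type library and 181 to 206 per knockdown library.

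Erap1 overlaps Cast, the calpain inhibitor calpastatin, on the opposite strand, and 14.0% of windows of 50 bases of the Erap1 transcript occurred in Cast. Cast was more abundant, at 228 ± 22.6 CPM in wild-type cells and 189 ± 1.29 CPM after knockdown, and it fell (log2 fold change -0.27, adjusted p = 0.00386). Cast thus changed in the opposite direction to Erap1, and its part in the Erap1 count was not tested.

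Nlrc5 (chromosome 8, 94434356 to 94527272, plus strand, ENSMUSG00000074151.13) encodes a transactivator of class I genes that acts with the factors of the X and Y boxes. It was close to the detection limit, with 1, 16, 5 and 13 counts in wild-type and 19, 8 and 10 in knockdown. Wild-type 1 held a single read, and the knockdown libraries lay within or just above the wild-type range. The log2 fold change of 0.41 had a 95% interval from -1.50 to 2.32 (adjusted p = 0.792), so a change of either sign could not be told from 0. The coefficient of variation of Nlrc5 in wild-type was 82.0%, against 33.8% for counting alone. The sign turned without knockdown replicate 1 (-0.04).

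**Figure D2:**
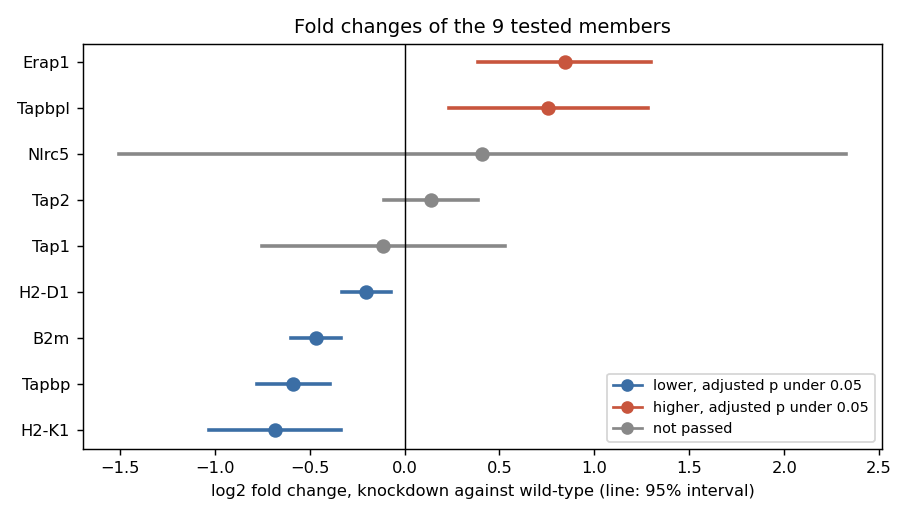
Log2 fold change (knockdown against wild-type) of the 9 tested members with its 95% interval. B2m, H2-K1, H2-D1 and Tapbp lie below 0, Tapbpl and Erap1 above 0, and the intervals of Tap1, Tap2 and Nlrc5 cross 0, the last by far the widest.

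In all, 9 members could be tested, of which 4 fell, 2 rose and 3 did not pass. Over all tested genes 15.3% fell and 14.1% rose (29.4% in either direction). The group ranges of the same 6 genes did not overlap, as in 35.1% of all tested genes. The median log2 fold change of the 9 was -0.11, against 0.001 for all tested genes. The list thus had no common direction. The number that rose was 1 without wild-type replicate 4, or without knockdown replicate 1 or 3. Each tested member kept its direction under the 16 other settings except Tap1 and Nlrc5. B2m, H2-K1, Tapbp and Erap1 also kept their calls in all 16.

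**Figure D3:**
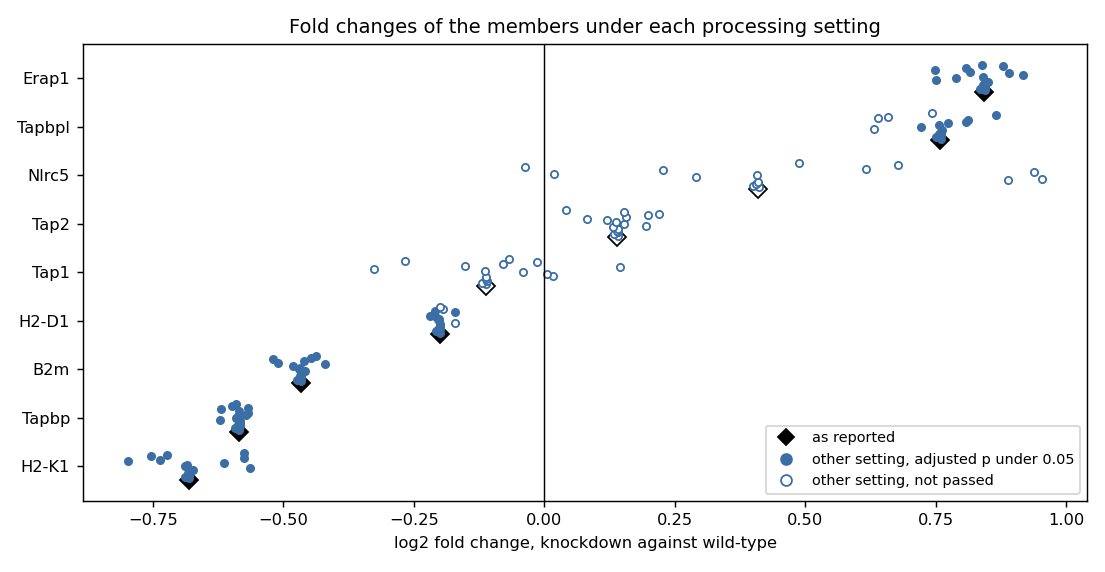
Log2 fold change of each tested member as reported (diamonds) and under the other processing settings (circles), all filled where the adjusted p was under 0.05. B2m, H2-K1, Tapbp and Erap1 are filled throughout, some H2-D1 and Tapbpl circles are open, and Tap1 and Nlrc5 spread across 0.

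Levels of different genes were compared per length, as TPM (length-scaled reads per 1e6) over the exon bases of each gene. In wild-type, B2m was highest, at 4279 ± 276 TPM (SD, n = 4). H2-D1 followed at 414 ± 29.2 TPM, then Tapbp at 72.1 ± 2.29 TPM. Tap2 (34.6 ± 4.57 TPM) and H2-K1 (30.1 ± 7.25 TPM) overlapped in range, and their order turned when the longest transcript served as length (27.9 and 34.6 TPM). Tapbpl came next at 7.63 ± 1.18 TPM, above Tap1 (3.57 ± 1.35 TPM) and Erap1 (3.12 ± 0.442 TPM), which overlapped each other. Nlrc5 and H2-T23 were at 0.228 ± 0.183 and 0.108 ± 0.0932 TPM and overlapped as well. The 3 members highest per length thus fell, and both that rose were below 8.55 TPM in every wild-type library.

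In knockdown the order was the same except that Erap1, at 5.90 ± 0.275 TPM (SD, n = 3), stood above Tap1, at 3.48 ± 0.634 TPM, with no overlap. Tap2, at 40.0 ± 4.91 TPM, stood clear of H2-K1, at 19.6 ± 2.72 TPM. Tapbpl reached 13.6 ± 1.94 TPM. H2-D1 was at 378 ± 3.62 TPM, where knockdown 1 (382.4 TPM) nearly touched wild-type 2 (383.0 TPM). With the longest transcript as length these libraries of H2-D1 changed order (345.8 and 345.4 TPM).

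**Figure D4:**
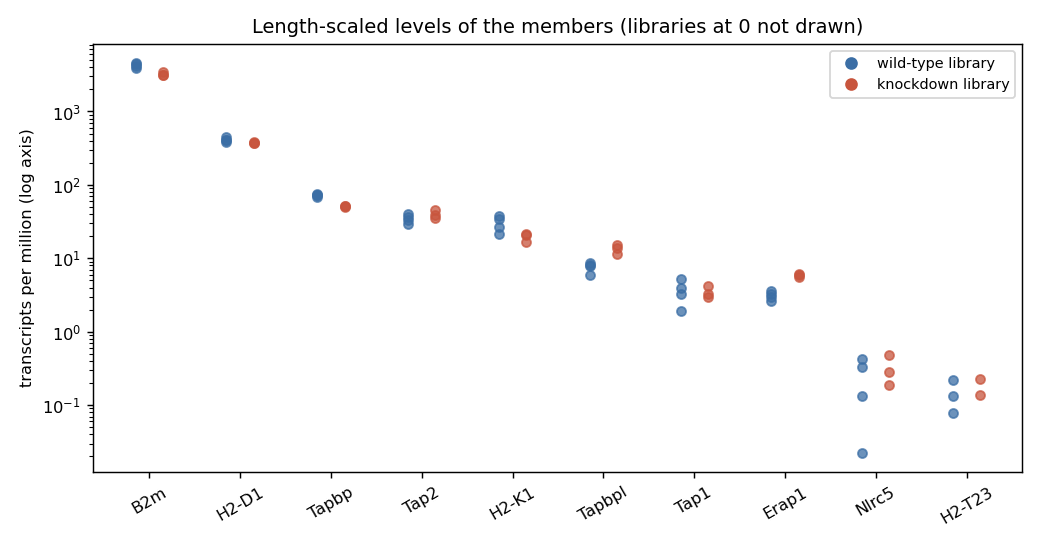
Length-scaled level (TPM, log axis) of each member in every library, ordered by the wild-type mean. B2m lies highest, Nlrc5 and H2-T23 lie below 1, and libraries at 0 are not drawn.

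The makeup of the class I transcripts also differed between groups, given here as ratios of TPM with no test. B2m per classical heavy chain (H2-K1 plus H2-D1) was 9.05 to 11.1 in wild-type and 7.91 to 8.63 in knockdown. Light chain counts per length thus exceeded those of the heavy chains in every library, by less in knockdown. With the longest transcript as length the ratios were 7.25 to 8.95 and 6.37 to 6.93. The heavy chain counts are uncertain because of shared sequence, so the size of the excess is uncertain too. H2-D1 exceeded H2-K1 by 12.0 to 17.75 times in wild-type and 17.76 to 22.8 times in knockdown, where the highest wild-type and the lowest knockdown library nearly touched. Tapbp exceeded Tapbpl by 8.52 to 11.7 times in wild-type and only 3.20 to 4.48 times in knockdown. Tap2 exceeded Tap1 by 5.65 to 17.4 times in wild-type and 9.41 to 13.9 times in knockdown, with overlap.

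Genes that act before and around the members were taken from fixed lists, whose counts are read against the 14.1% of tested genes higher and 15.3% lower. Among folding partners of class I in the endoplasmic reticulum, 5 of 10 rose and 0 fell (median 0.24). Calr, the lectin chaperone calreticulin of the loading complex, was at 664, 671, 643 and 678 CPM in wild-type and at 979, 898 and 1002 CPM in knockdown (log2 fold change 0.53, adjusted p = 1e-08). Pdia3, the thiol oxidoreductase ERp57 that pairs with tapasin, rose by 0.31 (adjusted p = 8.64e-05). Ganab, a glucosidase subunit (0.32), Uggt1, the glycoprotein folding sensor (0.28), and the chaperone Hspa5 (0.20) also rose. Canx, the membrane lectin calnexin, did not pass (0.03, 95% interval -0.09 to 0.15). Calr and Pdia3 thus rose where Tapbp, their partner in the loading complex, fell.

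Among immunoproteasome and proteasome activator genes, 4 of 8 rose and 0 fell (median 0.31). Psmb10, an interferon-induced catalytic subunit, was at 10.1, 9.58, 15.2 and 14.5 CPM in wild-type and at 25.7, 20.2 and 18.1 CPM in knockdown (log2 fold change 0.79, SE 0.19, adjusted p = 0.00133). Pomp, a proteasome assembly factor (0.37), and the activator Psme4 (0.38) rose, as did Psme3 (0.23), whose call was lost without knockdown replicate 2 (adjusted p = 0.0621) or 3 (adjusted p = 0.119). The activator subunits of the interferon-induced PA28 complex did not pass, with Psme1 at -0.05 and Psme2 at -0.02. Of the 3 constitutive catalytic subunits 0 passed by edgeR with the low-count filter, by DESeq2 or by limma-voom, and 1 had an unadjusted p under 0.05, with Psmb5 at 0.20 (adjusted p = 0.382) and Psmb7 at 0.21 (adjusted p = 0.0661). Psmb7 passed without wild-type replicate 1 (adjusted p = 0.0196) and in edgeR with no low-count filter (adjusted p = 0.0207).

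Of 10 cytosolic and endosomal peptidases, 3 rose and 0 fell (median 0.16). They were Ide, the insulin-degrading enzyme (0.51, adjusted p = 3.87e-05), the cytosolic dipeptidyl peptidase Dpp9 (0.41, adjusted p = 0.00126) and Tpp2, a large cytosolic peptidase downstream of the proteasome (0.29, adjusted p = 0.00177). Of 10 tested genes of endoplasmic reticulum exit and disposal, 4 rose and 0 fell (median 0.25). Vcp, the ATPase that extracts misfolded proteins from that compartment, rose from 379 ± 25.6 to 524 ± 11.3 CPM (0.47, adjusted p = 3.68e-07), and the ubiquitin-conjugating enzyme Ube2j1 rose by 0.34 (adjusted p = 0.00345). Bcap31, an export receptor, was at 0.29 (adjusted p = 0.0202) and its groups overlapped. Without wild-type replicate 3 or 4, or knockdown replicate 1 or 2, Bcap31 did not pass (adjusted p from 0.0562 to 0.175). March8, a membrane ubiquitin ligase, was at 0.34 (adjusted p = 0.0428). March8 did not pass when wild-type replicate 1 or 2 or any knockdown replicate was left out (adjusted p from 0.0746 to 0.151), nor with DESeq2 (adjusted p = 0.0571). The list's count that rose was 2 without knockdown replicate 1 or 2, and 1 gene fell without wild-type replicate 1 or knockdown replicate 2.

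Upstream, 3 of 8 tested genes of interferon receptors and their kinases fell and 0 rose (median -0.08). Ifngr1, the ligand-binding chain of the interferon gamma receptor, was at 30.8, 29.3, 29.0 and 34.4 CPM in wild-type and at 16.5, 22.7 and 18.0 CPM in knockdown (log2 fold change -0.69, SE 0.15, adjusted p = 0.000383). Ifnar2 fell by 0.43 (adjusted p = 0.000943) and the kinase Jak1 by 0.33 (adjusted p = 4.74e-05). Their partners Ifngr2 (-0.18), Ifnar1 (0.03) and Jak2 (0.07) did not pass.

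Of 20 transcription factors known at class I promoters, 5 fell and 1 rose (median -0.12). Rfx5, the subunit of the RFX complex at the X box, was at 21.4, 21.7, 19.6 and 21.1 CPM in wild-type and at 14.98, 14.5 and 9.43 CPM in knockdown (log2 fold change -0.69, adjusted p = 0.00297, and 0.0504 without knockdown replicate 3). Its partners did not pass, with Rfxap at -0.10 and Rfxank at 0.63 (adjusted p = 0.0709). Relb (-1.19, adjusted p = 0.000147) and Nfkb2 (-0.54), subunits of noncanonical NF-kB, fell, as did the interferon regulatory factors Irf2 (-0.40) and Irf8 (-1.33, adjusted p = 0.00596, and 0.0503 without knockdown replicate 1). Irf9, the DNA-binding part of the interferon-activated ISGF3 complex, rose from 5.96 ± 2.14 to 11.4 ± 2.64 CPM (0.94, adjusted p = 0.00539, and 0.0822 without knockdown replicate 1). Irf1 (0.03) and Rela (-0.11) did not pass. The number that rose was 2 without wild-type replicate 2 or 3, and 0 without knockdown replicate 1.

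**Figure D5:**
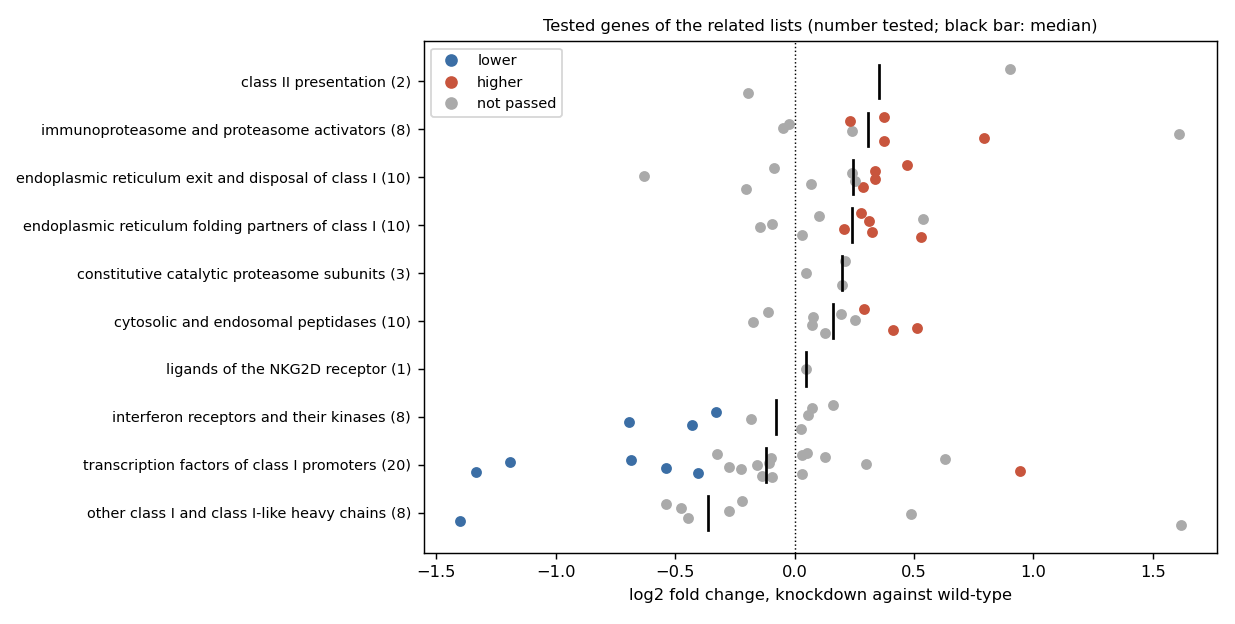
Log2 fold change (knockdown against wild-type) of the tested genes in each of the 10 fixed lists of related genes, each point 1 gene, with the list median as a black bar. Folding partners, proteasome activators, peptidases and disposal genes hold called genes only above 0, and interferon receptor genes only below 0.

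Of 29 other class I and class I-like heavy chains, 8 could be tested, 1 fell and 0 rose (median -0.36). The 8 leave 21 with too few counts, of which 18 had 0 counts in every library. Some of these genes share sequence with the members, as H2-Q1, H2-Q6 and H2-Q7 do with H2-D1, so under an unstated rule for reads with several matches a count of 0 does not show that a gene was silent. The gene that fell was Fcgrt, the heavy chain of the neonatal Fc receptor, which also pairs with B2m. Fcgrt was at 14.1, 17.1, 14.2 and 12.5 CPM in wild-type and at 3.997, 3.80 and 8.72 CPM in knockdown (log2 fold change -1.40, SE 0.25, adjusted p = 4.92e-05). Knockdown 3 was above its group but below every wild-type library. Cd1d1, a lipid-presenting chain that also binds B2m, had 3 to 34 counts per wild-type library and 34 to 58 per knockdown library, and did not pass (1.62, adjusted p = 0.0518). Without wild-type replicate 1 it passed (adjusted p = 0.0114), and the list then had 1 gene that rose and 2 that fell.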

How the data were processed

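The deposited table holds raw read counts per gene symbol, made by the authors. Trimmomatic, STAR and HTSeq, with mm10 as the build, appear per the submitters' processing notes, but neither their roles nor their versions do. Annotation, read length and strand setting: not given in the sources used here. The table has 0 further sample columns. The members and gene lists were chosen with earlier results of these data known.

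Counts were tested with edgeR 4.0.16 (R 4.3.3): filterByExpr, TMM factors and the robust quasi-likelihood test of 3 knockdown against 4 wild-type libraries, with no covariate and Benjamini-Hochberg adjustment over 11594 genes (threshold 0.05). Positive log2 values are higher in knockdown. CPM uses TMM-scaled library sizes, and each SE was derived from the log2 value and its F statistic. Positions, exon lengths and transcript windows are from GENCODE M21 (GRCm38), which matched 96.3% of tested symbols. Protein identity could not be computed and coding bases (Biopython 1.88) were used instead. Counts down to 3 per library were treated as the limit that a count of 0 allows, for counting error only. Among related genes, those named were Psmb8, Psmb9 and, per list, up to 4 past the threshold with the largest change, or, if fewer than 2 passed, the 2 of smallest p. Hspa5, Canx, Psme1, Psme2, Irf2, Nfkb2, the receptor and factor subunits beside called ones, Irf1, Rela and the overlapping genes were added after their values were seen, as partners of named genes.

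Alternatives were each library left out in turn, Rn45s removed, libraries thinned to the depth of the shallowest, a replicate-number block, limma-voom (limma 3.58.1), DESeq2 1.42.0, size factors by RLE or upper quartile, and the filter dropped or raised to 50 counts in at least 3 libraries. Library pairs differed beyond sampling noise (chi-square over its degrees of freedom, 8.45 to 16.5).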

Additional observations from a re-analysis of the deposited data

How the results depend on the processing

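The numbers of all genes called stayed within 1.5 times the reported count, at 1222 to 1744 higher and 1409 to 1813 lower, and Ddx54 stayed between -0.93 and -0.83. Same-numbered libraries of the groups did not deviate together (r of -0.041, -0.021 and -0.011 over 11594 genes). This check cannot tell whether same-numbered libraries were prepared together. With the replicate number as a block, 1 member was higher in place of 2, and H2-D1 (-0.17, adjusted p = 0.0794, edgeR) and Tapbpl (0.63, adjusted p = 0.109) did not pass. Leaving out each library gave 1 to 2 members higher. Bcap31 (adjusted p = 0.0943) and Psme3 (adjusted p = 0.0591) were also lost with the block, and Psmb7 passed (adjusted p = 0.0297). Tap1 turned to 0.016 with limma-voom and 0.0058 with the block, and leaving out a library gave -0.33 to 0.14 for Tap1, -0.037 to 0.94 for Nlrc5, -0.42 to 0.072 for H2-DMa, 0.58 to 1.54 for H2-DMb1, -0.071 to 0.67 for Psmb9 and -0.070 to 0.18 for Raet1e. The cause was not tested. With the filter of 50 counts Nlrc5 could not be tested. Cd1d1 passed in 6 of 15 settings. Of 320 counts in the related lists, 300 stayed within 1.5 times, but many of these were counts of 0 that stayed at 0. DESeq2 called 1 folding partner lower. Counts were low for H2-T23, Nlrc5, Psmb8 and Psmb9. The wild-type spread exceeded counting error for every tested member, called or not. Examples are Tap1 (39.7% against 10.6%), B2m (7.62% against 0.762%) and Tapbp (5.13% against 2.86%).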

Other observations

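The class II pathway was near the detection limit in these cells. Of 11 class II genes 2 could be tested and 0 passed by edgeR, DESeq2 or limma-voom, with 0 at an unadjusted p under 0.05 (edgeR). The peptide editor subunits were the 2 tested genes, H2-DMa at 2.89 ± 1.13 CPM in wild-type cells and 2.52 ± 0.918 CPM after knockdown (log2 fold change -0.20, adjusted p = 0.797), and H2-DMb1 at 1.005 ± 0.833 and 1.87 ± 0.719 CPM (0.90, adjusted p = 0.367). Of the ligands of the NK cell receptor NKG2D, Raet1e could be tested, at 6.75 ± 1.14 CPM in wild-type cells and 6.98 ± 1.26 CPM after knockdown (0.05, 95% interval -0.48 to 0.57).

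H2-T24, a nonclassical heavy chain picked after its values were seen, was at 9.21 and 8.58 CPM in wild-type 1 and 4 and at 4.96 and 3.66 CPM in wild-type 2 and 3. H2-K1 had its higher wild-type values in the same libraries, 28.8 and 30.6 CPM against 18.9 and 22.5 CPM. In knockdown H2-T24 was at 5.37, 5.26 and 5.79 CPM and did not pass (log2 fold change -0.28, adjusted p = 0.542).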
